A study of Mus musculus with 20 samples.

Results

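The genes described here are 34 listed genes of 2 plasma protease cascades that the liver secretes: 17 of complement and 17 of coagulation and fibrinolysis. They were found in both count tables by their Ensembl identifiers, matched to symbols of the GRCm38 annotation. In all, 33 were found, of the 25238 genes that both tables list: 17 complement genes and 16 coagulation genes. The identifier of Klkb1, plasma prekallikrein, matched no row of either table, and that gene was not analysed here.

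Coagulation ends in thrombin, which turns fibrinogen into fibrin, and it is held back by antithrombin, heparin cofactor II and the protein C and protein S pathway. Complement starts from antibody (classical), sugars (lectin) or spontaneous turnover (alternative), meets at C3 and ends in the membrane attack complex of C5 to C9. Hepatocytes make most of these proteins for plasma, and several of them change in the acute phase response to inflammation.

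The series asks what Pklr, the gene of the liver pyruvate kinase that makes the last step of glycolysis, does in fatty liver disease. All 20 livers came from male C57BL/6J mice that were 8 weeks old when they received an AAV8 vector by vein, and that then ate a diet named HF/HS up to the age of 25 weeks. Every vector used the thyroxine binding globulin promoter, which is active in hepatocytes. There were 5 livers for each of 4 vectors: shLUC, a hairpin RNA against firefly luciferase and the control of the knockdown; shPKLR, a hairpin against Pklr; GFP, the control of the overexpression; and PKLR, the cDNA of Pklr. No group without a vector or on another diet was analysed here.

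Library totals ran from 29933820 to 45413803 counts in 19 livers. Replicate 4 of shPKLR had 167891680 counts and stood apart in several of the genes below, so values that rest on it are also given without it. Levels are counts per 1000000 counts (CPM) after TMM scaling, and a ± b is the mean and SD over the 5 livers of a group. Pklr itself checked the labels: its level was 479 ± 116 CPM in shLUC livers against 54.9 ± 23.3 CPM in shPKLR livers, and 118 ± 34.5 CPM in GFP livers against 742 ± 210 CPM in PKLR livers (SD, n = 5 each). Neither pair of groups overlapped. All 18 hepatocyte markers were present, with a summed level of 100610 to 151708 CPM in the 20 livers. In bulk tissue, fewer cells of a type and less RNA per cell cannot be told apart.

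Complement genes made up 0.863% of the counts with shLUC, 0.965% with shPKLR, 1.15% with GFP and 1.02% with PKLR. The complement share ran from 0.692% to 0.979% in the shLUC livers and from 1.07% to 1.37% in the GFP livers, without overlap. These shares are not TMM scaled. After TMM scaling the summed complement levels of the control groups overlapped, reaching 9907 CPM with shLUC and starting at 9885 CPM with GFP. Coagulation genes made up 1.55%, 1.46%, 1.58% and 1.62% in the same order. The sums are carried by a few genes. Per kilobase of the principal transcript, the most abundant members over the 20 livers were the fibrinogen chains Fgg at 1415 ± 282 CPM per kb (SD, n = 20) and Fga at 1406 ± 325 CPM per kb (SD, n = 20). After them came Kng1, which encodes kininogen, at 910 ± 87.0 CPM per kb, C3 at 899 ± 189 CPM per kb, the prothrombin gene F2 at 799 ± 97.2 CPM per kb and the plasminogen gene Plg at 697 ± 112 CPM per kb (SD, n = 20 each). Serpinc1 is left out of this order because its transcript length is uncertain. At the low end stood Pros1 at 11.1 ± 2.19 CPM per kb and Masp1 at 8.32 ± 2.33 CPM per kb (SD, n = 20 each). C2 and Cfb were lower still, at 5.68 and 2.16 CPM per kb. Their levels are uncertain, since 42.8% of the exon bases of C2 and 79.5% of those of Cfb lie on the same strand in exons of the readthrough model Gm20547 too.

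Comparing the classes within each liver, the mean log2 CPM of the complement genes was below that of the coagulation genes in all 20. The difference, complement less coagulation, was -1.19 ± 0.12 (SD, n = 5) with shLUC and -0.95 ± 0.11 (SD, n = 5) with shPKLR. It was -0.98 ± 0.09 (SD, n = 5) with GFP and -1.04 ± 0.13 (SD, n = 5) with PKLR. The shift between shPKLR and shLUC was thus 0.24 with a standard error of 0.07, and 0.23 without shPKLR replicate 4, while PKLR and GFP differed by -0.05 with a standard error of 0.07. The groups overlapped in both experiments: shLUC ran from -1.35 to -1.03 and shPKLR from -1.12 to -0.85. With the median in place of the mean over the genes, the knockdown shift was 0.10. The shift has 2 parts of similar size, 0.12 in the complement mean and -0.12 in the coagulation mean, with standard errors of 0.15 and 0.10. Without shPKLR replicate 4 these parts were 0.18 and -0.04. The complement part lay mostly in 1 block, the 6 terminal pathway genes, whose median log2 fold change between shPKLR and shLUC was 0.43. Medians were -0.01 for the 4 lectin and 0.05 for the 4 classical pathway genes, and C3, Cfb and Cfi had 0.03, -0.20 and 0.04.

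**Figure D1:**
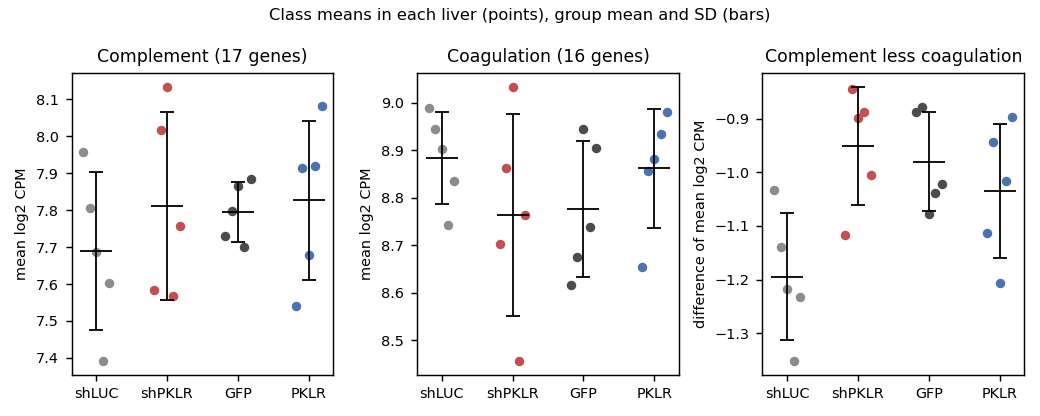
Mean log2 CPM of the 17 complement genes (left), of the 16 coagulation genes (middle) and the first less the second (right), on the y axes, in each liver by vector on the x axis; points are livers and bars the group mean and SD. The shLUC livers are the lowest group in the right panel (-1.19 ± 0.12) and the other 3 groups have means between -1.04 and -0.95.

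In the knockdown, none of the 33 genes passed an adjusted p of 0.05 (edgeR's quasi-likelihood test with Benjamini-Hochberg adjustment over all genes), and 0.00641% of the 15611 genes tested did, which is Pklr alone. At an unadjusted p under 0.05, 2 members passed, C8a and C2, beside 15.0% of all genes. DESeq2 and limma-voom also called 0 members, beside 1.67% and 0.0512% of all genes. As for direction, 13 of 17 complement genes were higher and 12 of 16 coagulation genes lower with shPKLR, with median log2 fold changes of 0.06 and -0.13. Of all genes tested, 52.8% were higher and the median was 0.02. Without shPKLR replicate 4, 13 complement genes were higher with a median of 0.12, and 13 coagulation genes lower with a median of -0.05. The 95% intervals of the fold changes lay within 2-fold for all 16 coagulation genes and for 11 of the 17 complement genes.

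In the overexpression, 1 of the 33 genes was called, Pros1, where 2.03% of the 15842 genes tested were called, 0.846% downward. DESeq2 called 5 members (Pros1, Mbl2, C4b, C1s1 and Masp1) and 6.99% of all genes. At an unadjusted p under 0.05, 7 members passed, beside 18.8% of all genes. Among the members, 14 of 16 coagulation genes and 10 of 17 complement genes were higher with PKLR, with medians of 0.11 and 0.09, while 51.1% of all genes were higher and their median was 0.01. Here the 95% intervals lay within 2-fold for all 16 coagulation genes and for 16 complement genes, C8b being the exception. A model of all 20 livers tested whether the effects of overexpression and knockdown differed. It called 0 members by edgeR, 5 at an unadjusted p under 0.05 (F13b, Masp1, C4b, Mbl2 and C2), 1 by DESeq2 (Mbl2) and 0 by limma-voom. Of all 16407 genes, these rules called 5.50%, 25.7%, 9.91% and 5.04%.

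**Figure D2:**
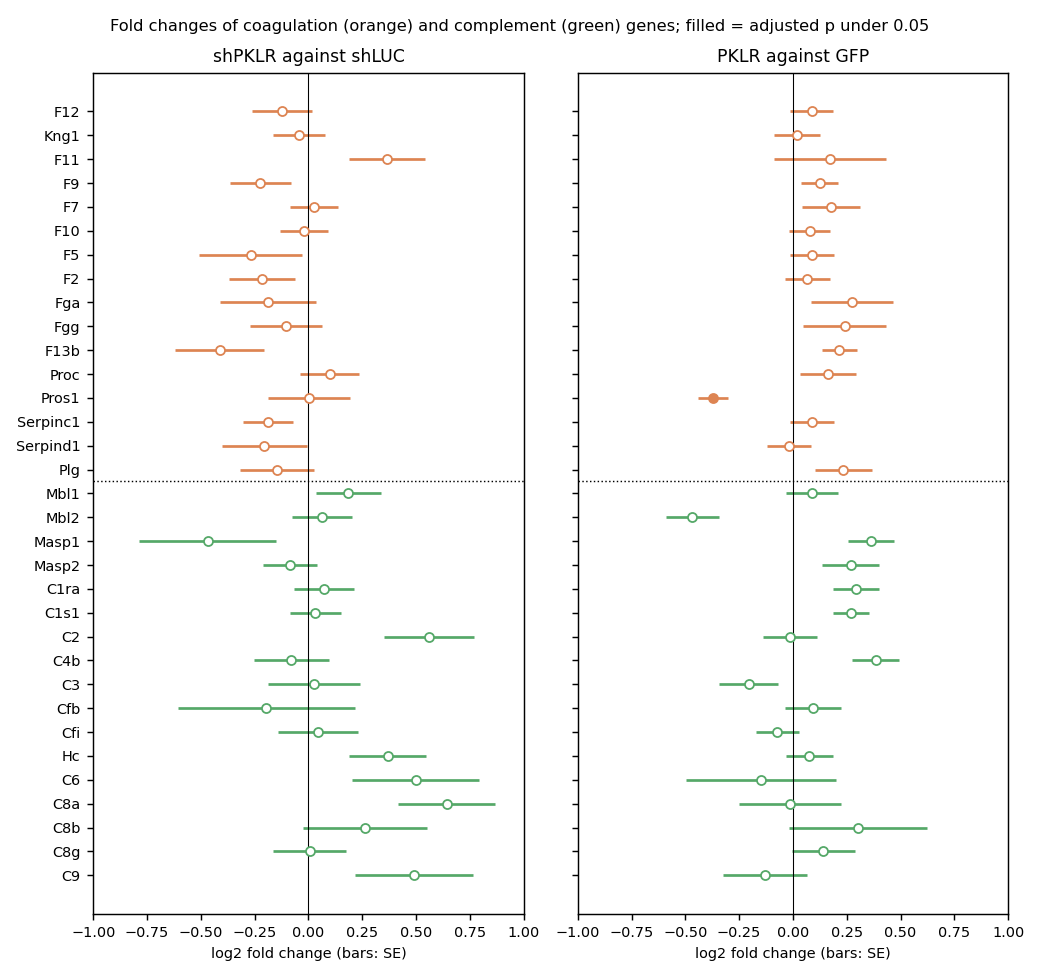
Log2 fold change of each gene on the x axis (left, shPKLR against shLUC; right, PKLR against GFP), with coagulation genes above the dotted line and complement genes below it; bars are standard errors of the edgeR fits and a filled point passed an adjusted p of 0.05. Pros1 in the right panel, at -0.37, is the only filled point.

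The upstream coagulation factors had small differences. Of the contact and intrinsic factors, F12 levels were 452 ± 18.03, 418 ± 76.8, 433 ± 55.2 and 455 ± 15.6 CPM (SD, n = 5 each) for shLUC, shPKLR, GFP and PKLR. Kng1, which may share reads with its close paralog Kng2, had log2 fold changes of -0.04 in the knockdown (-0.07 without shPKLR replicate 4) and 0.02 in the overexpression. F9, the haemophilia B gene, had -0.22 and 0.12, and F7, which starts the tissue factor pathway, had 0.03 and 0.18. None of these passed the test.

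F11, which activates factor IX, had the smallest p of the coagulation genes in the knockdown. It read 84.7, 70.0, 65.3, 57.7 and 60.2 CPM in the shLUC livers and 83.4, 78.2, 107, 111 and 58.8 CPM in the shPKLR livers. The shPKLR livers 3 and 4 were above every control, and the other 3 lay within the control range. Its log2 fold change was 0.37 with a standard error of 0.18 and an adjusted p of 0.345. Without shPKLR replicate 4, the highest shPKLR liver, it was 0.27, and F13b then had the smallest p of the coagulation genes. In the overexpression F11 levels were 68.3 ± 17.3 CPM for GFP and 76.2 ± 28.2 CPM for PKLR (SD, n = 5 each).

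In the common pathway, F10, F5 and F2 all had small differences. F10 had log2 fold changes of -0.02 and 0.08, and F5 had -0.27 (-0.10 without shPKLR replicate 4) and 0.09. F2, prothrombin, had 1704 ± 73.2 CPM in shLUC and 1475 ± 302 CPM in shPKLR livers (SD, n = 5 each), a log2 fold change of -0.22 with a standard error of 0.15. With shPKLR replicate 4, which had the lowest F2 level at 1032 CPM, left out it was -0.11. Neither F10, F5 nor F2 passed the test in either experiment.

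Among the fibrin genes, Fga and Fgg were higher with PKLR by 0.27 and 0.24 on the log2 scale, with standard errors of 0.19 each. They were lower with shPKLR by values of -0.19 and -0.10, and -0.02 and -0.0004 without shPKLR replicate 4. The third fibrinogen chain, Fgb, stood at -0.05 and 0.28. F13b, the carrier subunit of the factor that cross-links fibrin, read 129, 151, 130, 104 and 137 CPM with shLUC and 91.6, 122, 128, 53.1 and 98.0 CPM with shPKLR. In the other experiment it read 104, 107, 120, 100 and 112 CPM with GFP and 120, 121, 144, 118 and 122 CPM with PKLR. Of the shPKLR livers, 3 were below every control, while 4 of 5 PKLR livers were above the highest GFP liver. The log2 fold changes were -0.41 (standard error 0.21, adjusted p = 0.352) and 0.22 (standard error 0.08, adjusted p = 0.172), and they differed by 0.61 (standard error 0.23, adjusted p = 0.111), all by edgeR. Without shPKLR replicate 4 the knockdown value was -0.25 and the difference 0.45. 

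Pros1 (ENSMUSG00000022912, GRCm38 chromosome 16, 62854307 to 62929346), which encodes protein S, the cofactor of activated protein C, was the one member that the edgeR test called. It read 49.1, 42.8, 43.6, 45.2 and 44.2 CPM in the GFP livers and 35.4, 30.5, 34.2, 37.4 and 34.9 CPM in the PKLR livers. All PKLR livers were below all GFP livers; over all genes, 4.75% had groups that did not overlap in this experiment. Pros1 fell by 0.37 on the log2 scale, to 0.77 of the GFP level, with a standard error of 0.07 and an adjusted p of 0.0241 by edgeR. In the knockdown experiment it read 30.0, 34.5, 33.2, 33.4 and 36.2 CPM with shLUC and 26.6, 30.9, 46.9, 21.8 and 42.8 CPM with shPKLR. The shPKLR livers thus spread on both sides of their controls, with a log2 fold change of 0.00 and a standard error of 0.19 (0.13 without shPKLR replicate 4). PKLR livers were at 34.5 ± 2.52 CPM (SD, n = 5), shLUC livers at 33.5 ± 2.27 CPM (SD, n = 5) and GFP livers at 45.0 ± 2.47 CPM (SD, n = 5). Of these 3 groups, GFP is the one that stands apart. The shPKLR livers 3 and 5, at 46.9 and 42.8 CPM, lay within the GFP range. The vector and the experiment cannot be told apart in a comparison of GFP with shLUC. The call was lost without GFP replicate 4 (adjusted p = 0.0646), without PKLR replicate 3 (adjusted p = 0.0547) and in an edgeR fit of all 20 libraries (adjusted p = 0.196, the highest over the alternatives, where DESeq2 gave the lowest, 6.33e-05), which called 2.06% of all genes.

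**Figure D3:**
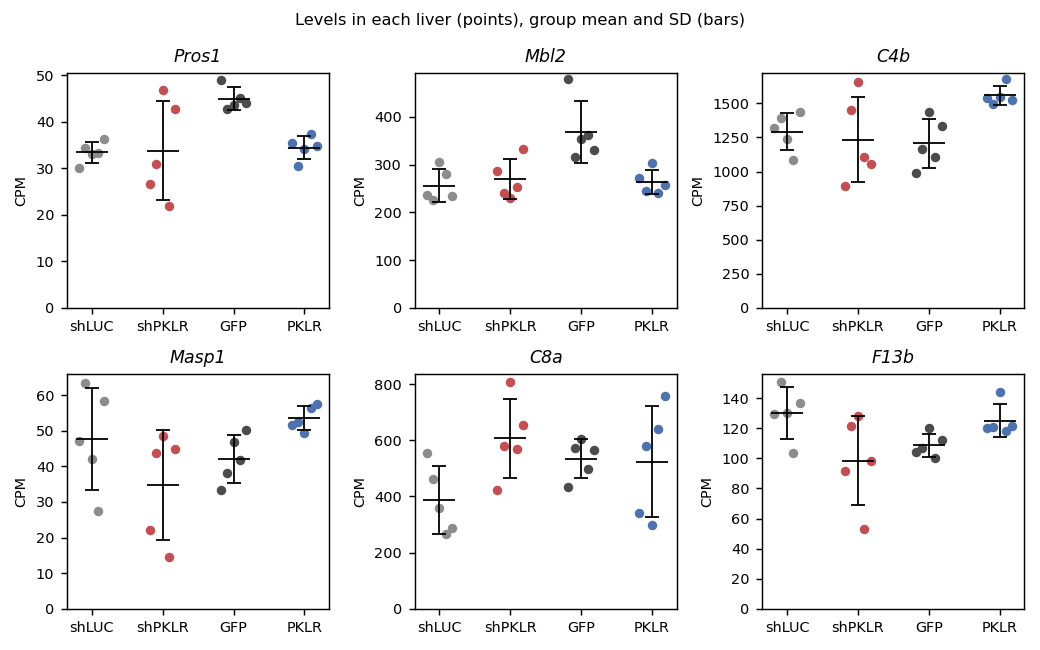
CPM on the y axis in each liver (points) by vector on the x axis for Pros1, Mbl2, C4b, Masp1, C8a and F13b, with the group mean and SD as bars. For Pros1 and Mbl2 the GFP livers are above the PKLR livers without overlap, and for C4b the PKLR livers are above the GFP livers.

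Of the other anticoagulant genes, Proc, which encodes protein C, had log2 fold changes of 0.10 and 0.16. Serpind1, heparin cofactor II, had -0.21 and -0.02. Without shPKLR replicate 4 the knockdown values were -0.0028 for Proc and -0.06 for Serpind1. Serpinc1, which encodes antithrombin, read 1978, 1918, 1976, 2076 and 1906 CPM with shLUC and 1942, 1864, 1803, 1577 and 1523 CPM with shPKLR. In shPKLR, 4 of 5 livers were below every control, and the log2 fold change was -0.19 (standard error 0.12, edgeR adjusted p = 0.438). Plg, the zymogen of the fibrin-dissolving protease plasmin, read 1470, 1620, 2066, 1645 and 1923 CPM with GFP and 1619, 1891, 2193, 2147 and 2311 CPM with PKLR. Those groups overlapped, and the log2 fold change was 0.23 (standard error 0.13, edgeR adjusted p = 0.360). In the knockdown Plg levels were 2046 ± 254 CPM for shLUC and 1861 ± 417 CPM for shPKLR (SD, n = 5 each), a log2 fold change of -0.15, or -0.04 without shPKLR replicate 4.

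Of the 4 lectin pathway genes, Mbl2 was lower with PKLR and the other 3 higher, and none passed the edgeR test. Mbl2 (ENSMUSG00000024863, chromosome 19, 30232942 to 30239687) encodes a mannose-binding lectin, which recognises microbial sugars. It read 478, 315, 353, 362 and 330 CPM with GFP and 272, 245, 303, 241 and 256 CPM with PKLR. Every PKLR liver was below every GFP liver, and the log2 fold change was -0.47 with a standard error of 0.12 and an adjusted p of 0.0738 by edgeR. Over the alternatives the adjusted p ran from 0.00557 (DESeq2) to 0.146. With shLUC and shPKLR the gene was at 256 ± 34.8 and 269 ± 41.9 CPM (SD, n = 5 each). These means are at the level of the PKLR group, 263 ± 25.4 CPM (SD, n = 5), and below that of the GFP group, 367 ± 64.7 CPM (SD, n = 5). In shPKLR replicate 5, at 333 CPM, the gene lay within the GFP range. Its relative Mbl1 showed no such step, with log2 fold changes of 0.18 (0.12 without shPKLR replicate 4) and 0.09. The difference between the effects of overexpression and knockdown on Mbl2 was -0.55 (standard error 0.18, edgeR adjusted p = 0.0743).

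Masp1 and Masp2 encode the proteases that the lectins carry. Masp1 (ENSMUSG00000022887, chromosome 16, 23449417 to 23520815) read 33.3, 38.0, 46.7, 41.9 and 50.2 CPM with GFP and 51.5, 52.4, 49.4, 56.3 and 57.6 CPM with PKLR. Only the lowest PKLR liver lay within the GFP range. The log2 fold change was 0.36 (standard error 0.11, edgeR adjusted p = 0.0986), and it passed without GFP replicate 5 (adjusted p = 0.0448) and by DESeq2 (adjusted p = 0.0431), while the highest adjusted p over the alternatives was 0.601. In the knockdown Masp1 read 47.1, 63.4, 41.9, 27.4 and 58.4 CPM with shLUC and 22.1, 43.6, 48.6, 14.47 and 44.9 CPM with shPKLR. The log2 fold change there was -0.47 with a standard error of 0.32, and -0.27 without shPKLR replicate 4, the lowest liver. The overexpression value less the knockdown value was 0.81 (standard error 0.36, edgeR adjusted p = 0.168), and 0.61 without shPKLR replicate 4. Masp2 had log2 fold changes of -0.09 and 0.27.

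Of the 4 classical pathway genes, C1ra, C1s1 and C4b were higher with PKLR and C2 was at -0.01 on the log2 scale, and none passed the edgeR test. C4b (ENSMUSG00000073418, chromosome 17, 34728380 to 34743882) encodes C4, which the C1s protease cleaves on the way to the C3 convertase. It read 988, 1169, 1434, 1109 and 1332 CPM with GFP and 1542, 1495, 1547, 1682 and 1526 CPM with PKLR. The groups did not overlap, with a log2 fold change of 0.38, a standard error of 0.11 and an adjusted p of 0.0976 by edgeR. Over the alternatives it ran from 0.0107 (DESeq2) to 0.211. In the knockdown C4b levels were 1293 ± 137 CPM for shLUC and 1232 ± 312 CPM for shPKLR (SD, n = 5 each). C1s1 and C1ra encode the proteases of the first complement component. C1s1 ran from 228 to 257 CPM with GFP and from 265 to 330 CPM with PKLR, without overlap, a log2 fold change of 0.27 (standard error 0.08, edgeR adjusted p = 0.109). Its shLUC livers, at 281 ± 11.9 CPM (SD, n = 5), were also all above the GFP livers. C1ra had a log2 fold change of 0.29 in the overexpression and 0.07 in the knockdown. C4b, C1ra and C1s1 each have a near-identical copy (C4a, C1rb and C1s2), so their counts are uncertain where reads were split or shared.

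C2, the other part of the classical convertase, read 16.1, 11.5, 14.9, 11.98 and 11.2 CPM with shLUC and 15.2, 17.5, 18.8, 31.5 and 14.0 CPM with shPKLR. Replicate 4 of shPKLR was the highest of the 20 livers, and the log2 fold change of 0.56 (standard error 0.21, edgeR adjusted p = 0.289) was 0.31 without it. C3, the hub of all 3 routes, was at 4116 ± 802, 4218 ± 1171, 5451 ± 738 and 4682 ± 715 CPM (SD, n = 5 each) with shLUC, shPKLR, GFP and PKLR. Its log2 fold changes were 0.03 (0.16 without shPKLR replicate 4) and -0.21. Cfb, the alternative pathway protease, read 0.911 CPM in shPKLR replicate 4 and 3.30 to 7.99 CPM in the other 19 livers. Its knockdown log2 fold change was -0.20, and 0.09 without that liver, and its overexpression value was 0.09. Cfi, the protease that inactivates C3b and C4b, had log2 fold changes of 0.04 (0.19 without shPKLR replicate 4) and -0.07.

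Without overlap between PKLR and GFP there were thus 2 complement genes higher (C4b and C1s1), 1 complement gene lower (Mbl2) and 1 coagulation gene lower (Pros1). The shares over all genes were 2.63% higher and 2.13% lower. Between shPKLR and shLUC no member was without overlap, where 3.15% of all genes were. Between the control groups, GFP was above shLUC without overlap for Cfi, Mbl2 and Pros1 and below it for C1s1, where 7.99% of all genes were without overlap. Both comparisons use the same 5 GFP livers.

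The genes of the terminal pathway include the most variable members. All 6 were higher with shPKLR, with a median log2 fold change of 0.43, and 0 passed the edgeR test with 1 at an unadjusted p under 0.05. C8a (ENSMUSG00000035031, chromosome 4, 104815679 to 104876398), a chain of C8, read 555, 464, 359, 267 and 286 CPM with shLUC and 422, 581, 808, 567 and 654 CPM with shPKLR. The shPKLR livers 2, 3, 4 and 5 were above every control and replicate 1 lay within the control range. Its log2 fold change of 0.64 (standard error 0.22, edgeR adjusted p = 0.268) corresponds to 1.56-fold, with a 95% interval from 1.11-fold to 2.18-fold. Hc, the mouse gene of C5, read 616, 611, 527, 422 and 556 CPM with shLUC and 532, 765, 980, 568 and 701 CPM with shPKLR. Of those, 3 shPKLR livers were above the controls, a log2 fold change of 0.37 (standard error 0.18, edgeR adjusted p = 0.346). C6 and C9 had log2 fold changes of 0.50 and 0.49 with standard errors of 0.29 and 0.27, C8b had 0.26 and C8g 0.01, which was -0.14 without shPKLR replicate 4. With PKLR, 3 of the 6 were higher and 3 lower than with GFP, with a median of 0.03.

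C6, C8a, C8b and C9, which encode parts of the membrane attack complex, varied together from liver to liver, less clearly among the GFP livers. This set was picked after its values had been seen and is described without a test. In the PKLR livers C6 read 91.3, 283, 90.7, 265 and 301 CPM and C9 read 235, 417, 294, 412 and 560 CPM. C8a read 340, 580, 300, 641 and 758 CPM, and C8b read 96.9, 309, 134, 234 and 342 CPM. For each of the 4 genes, PKLR livers 1 and 3 were the lowest of their group. With shLUC, liver 1 was the highest for each of the 4 genes, at 289 CPM for C6 and 596 CPM for C9, and liver 2 was the next. The highest PKLR liver had 3.32 times the C6 level of the lowest and 3.53 times the C8b level. Across the same livers F2 differed by 1.18 times, Fga and Fgg by 2.00 times each and F11 by 2.38 times. In the GFP group the highest liver had 1.57 times the C6 level of the lowest and 1.18 times the C9 level. There C6 read 218, 279, 178, 226 and 253 CPM and C8a read 432, 573, 603, 498 and 565 CPM, so that liver 3 was the lowest for C6 and the highest for C8a. Over the 20 livers, after each group's mean was taken off, the 6 pairs of these genes had Pearson r of 0.80 to 0.91 and Spearman rho of 0.78 to 0.91. Leaving out shLUC replicate 1 and PKLR replicate 5, the 2 livers farthest from the median of the 4-gene mean, gave r of 0.72 to 0.88. The livers share 2 count tables and a diet, and the correlation is a description of these 20.

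**Figure D4:**
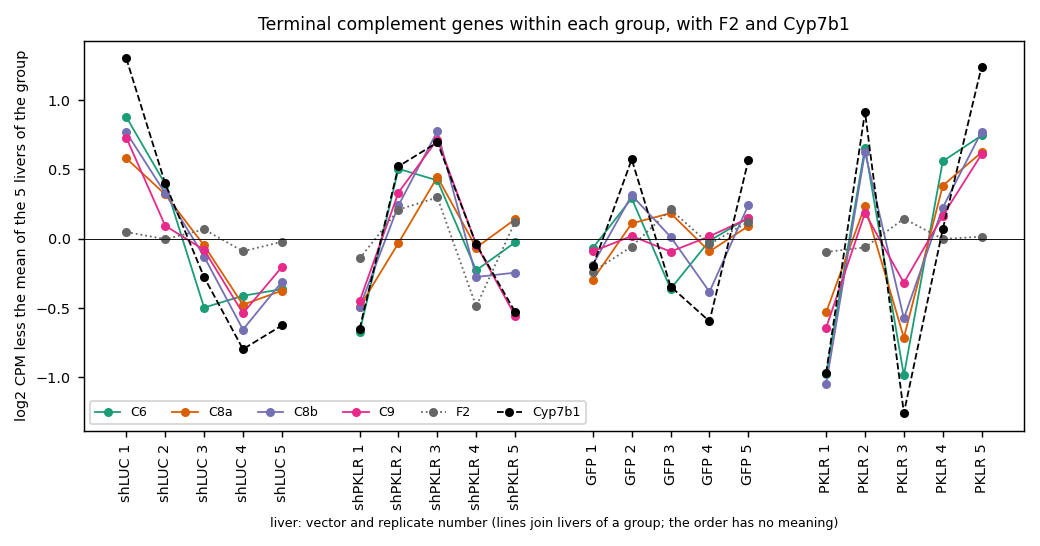
Log2 CPM less the mean of the 5 livers of the same group (y axis) for each liver (x axis), for C6, C8a, C8b and C9 (coloured lines), prothrombin F2 (dotted) and Cyp7b1 (dashed). PKLR livers 1 and 3 are low for the 4 complement genes and Cyp7b1, while F2 stays near 0 there.

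Of the remaining members, Hc followed the 4-gene mean with r of 0.79 and F11 with 0.68, whereas C8g, the third chain of C8, had r of 0.35. Mbl2 went the other way with r of -0.58. As the median of the 4 within-group coefficients of variation, C8b had 39.2%, C6 38.7%, C9 34.01%, C8a 27.4% and F11 25.0%, at 1 end of the 33 genes, while Pros1 had 7.05% and C1s1 6.99%. Single groups could lie far from these medians: Pros1 had 31.6% with shPKLR, and C9 had 6.99% with GFP. C8b (chromosome 4, 104766317 to 104804548) and C8a are neighbours on opposite strands. C6 (4727175 to 4814967) and C9 (6445327 to 6498751) both lie on chromosome 15, whereas C8g is on chromosome 2 and Hc too.

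The bases just before the start sites of the 4 genes are shown because these genes vary together. They are RefSeq sequences of GRCm38.p6, 5′ to 3′ on the strand of the gene, at chr15:4726960-4727174 (C6, plus strand), chr4:104876399-104876648 (C8a, minus strand), chr4:104766067-104766316 (C8b, plus strand) and chr15:6445096-6445326 (C9, plus strand). Windows were 250 bases, and bases inside the annotated gene were left off for C6 and C9. Capitals mark matches to TTCNNNGAA (the palindrome bound by STAT factors), to GTTAAT (an HNF1 half-site) or to TTGCNNAA (a C/EBP type site) on either strand.
C6: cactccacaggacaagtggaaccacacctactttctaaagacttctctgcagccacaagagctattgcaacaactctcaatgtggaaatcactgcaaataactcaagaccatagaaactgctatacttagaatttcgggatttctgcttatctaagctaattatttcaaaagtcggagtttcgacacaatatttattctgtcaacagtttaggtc
C8a: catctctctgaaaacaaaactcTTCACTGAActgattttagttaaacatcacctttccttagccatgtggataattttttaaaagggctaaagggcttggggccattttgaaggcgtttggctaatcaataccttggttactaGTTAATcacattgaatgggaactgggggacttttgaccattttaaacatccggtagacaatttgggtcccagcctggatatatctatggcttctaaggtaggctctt
C8b: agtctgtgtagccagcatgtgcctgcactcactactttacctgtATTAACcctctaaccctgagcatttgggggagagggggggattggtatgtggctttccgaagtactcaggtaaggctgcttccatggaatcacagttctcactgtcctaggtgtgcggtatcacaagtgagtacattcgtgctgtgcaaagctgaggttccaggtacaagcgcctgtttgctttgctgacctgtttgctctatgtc
C9: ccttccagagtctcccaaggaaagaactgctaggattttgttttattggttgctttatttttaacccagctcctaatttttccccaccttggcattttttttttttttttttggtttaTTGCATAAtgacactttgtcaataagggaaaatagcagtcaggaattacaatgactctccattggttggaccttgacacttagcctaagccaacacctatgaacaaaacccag
No motif was shared by all 4 windows. C8a holds TTCACTGAA and GTTAAT, C8b holds ATTAAC, which is GTTAAT on the other strand, C9 holds TTGCATAA, and C6 holds none of the 3. Windows of the same length before 20595 genes matched TTCNNNGAA in 6.8%, GTTAAT in 6.0% and TTGCNNAA in 9.2%. CAAAGTCCA, which HNF4 can bind, and the E-box CACGTG were in none of the 4 windows, and in 0.4% and 6.4% of all. A match is a string of letters, not a bound site, and the lack of one says only that these letters are not in the window.

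**Figure D5:**
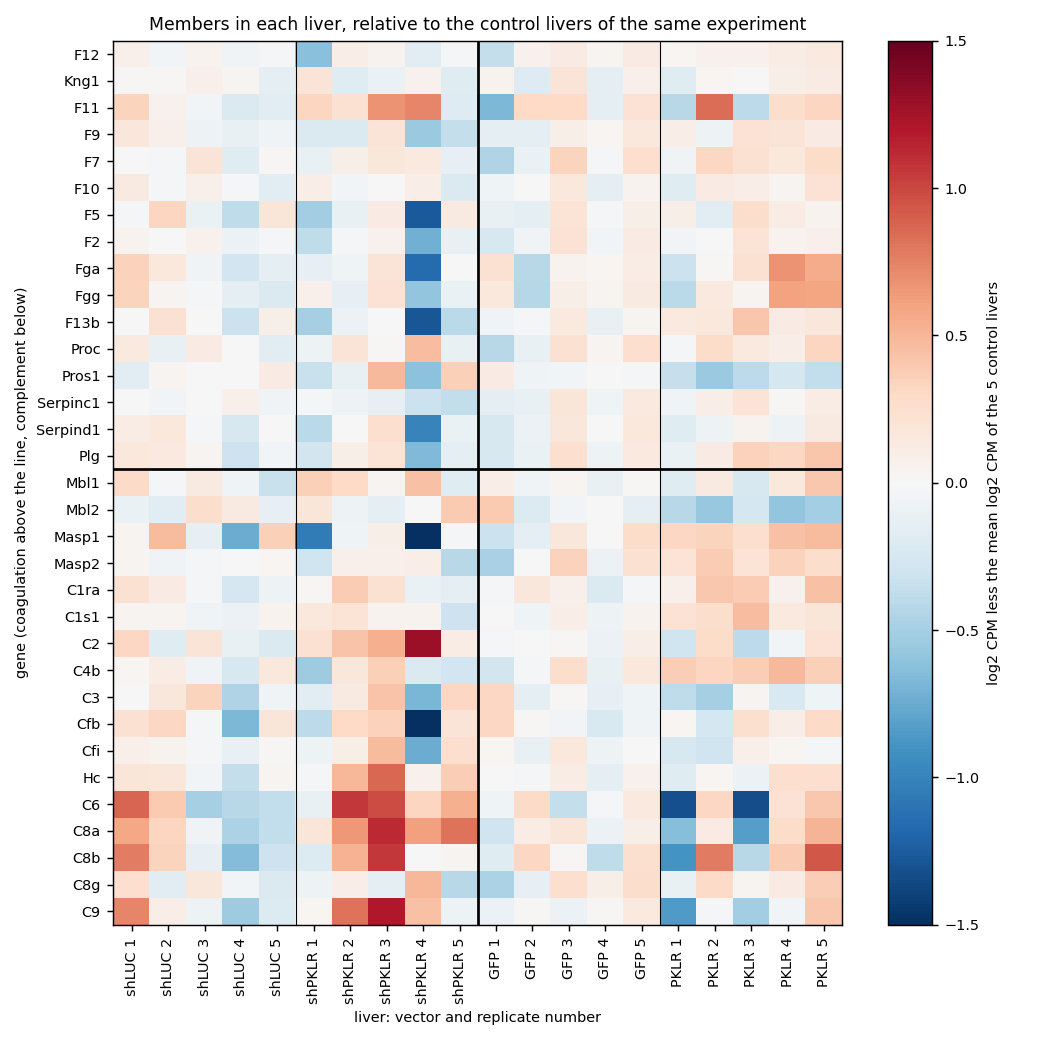
Log2 CPM of each gene (rows, coagulation above the heavy line and complement below it) in each liver (columns), less the mean of the 5 control livers of the same experiment; colours end at 1.5 in either direction, and values beyond are drawn at the end. Replicate 4 of shPKLR is blue for F5, Fga, F13b, Serpind1, Masp1 and Cfb. The rows C6, C8a, C8b and C9 largely change colour together from liver to liver, less clearly among the GFP livers.

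Beyond the 34 genes, 31 further coagulation genes and 34 further complement genes were looked at, of which 27 and 34 were tested in the overexpression. There 1 of the coagulation genes rose and none fell: F2r, the thrombin receptor PAR1, with 15.9 ± 3.94 CPM in GFP and 27.6 ± 3.45 CPM in PKLR livers (SD, n = 5 each). Its log2 fold change was 0.80 with an adjusted p of 0.0299 by edgeR. Among the complement genes 1 rose and 1 fell, both collectins. Over all genes, edgeR called 2.03% in the overexpression. Colec12, a scavenger receptor, had a log2 fold change of 0.61 (edgeR adjusted p = 0.0386). Colec11, a soluble lectin that starts the lectin pathway, fell by 0.73 on the log2 scale, from 37.1 ± 6.48 CPM (SD, n = 5) to 22.2 ± 4.33 CPM (SD, n = 5), with an adjusted p of 0.036 by edgeR. These 3 calls were lost in 7 (F2r), 10 (Colec12) and 7 (Colec11) of 18 alternatives, where the adjusted p reached 0.0738, 0.097 and 0.0911, mostly with 1 liver left out. All 8 stellate cell markers were lower with PKLR than with GFP too, with a median log2 fold change of -0.72. By edgeR 1 was called and 7 had an unadjusted p under 0.05, beside 18.8% of all genes. The sum of the 8 markers ran from 229.9 to 465 CPM with GFP and from 142 to 264 CPM with PKLR. With shLUC it ran from 172 to 269 CPM and with shPKLR from 140 to 262 CPM. The GFP range was the highest of the 4 and overlapped the other ranges. None of the 8 markers was at 0 in all livers. Their part in the values of Colec11 and Pros1 was not tested.

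In the knockdown none of these further genes passed the edgeR test. At an unadjusted p under 0.05, 5 of 26 coagulation and 8 of 34 complement genes passed, beside 15.0% of all genes. The overexpression effect differed from the knockdown effect for F2r (by 1.29, adjusted p = 0.0103), for Lman1, a cargo receptor that factors V and VIII need for secretion (0.69, adjusted p = 0.0344), and for Tfpi2, a protease inhibitor (0.80, adjusted p = 0.0446), all by edgeR. It also differed for Colec12 (1.29, adjusted p = 0.00826) and, downward, for the complement receptor chains Itgam (-2.19, adjusted p = 0.0428) and Itgax (-2.44, adjusted p = 0.0155), by the same test. Both receptor chains had low counts, with at most 1.25 CPM in any liver for Itgam and 6.14 CPM for Itgax. Of these difference calls, Lman1 was lost in 9 of 27 alternatives (adjusted p up to 0.0721), Tfpi2 in 13 of 27 (up to 0.0893), Itgam in 18 of 26 (up to 0.0979) and Itgax in 1 of 27 (0.064, limma-voom). F2r and Colec12 passed in all 27. The difference test by edgeR called 5.50% of all genes. All 12 markers of Kupffer cells and macrophages, which include the C1q genes, were higher with shPKLR, with a median log2 fold change of 0.45; edgeR called 0 of them, with 4 at an unadjusted p under 0.05. Their sum ran from 216 to 389 CPM with shLUC and from 202 to 488 CPM with shPKLR, where replicate 4 had 486 CPM. With PKLR 8 of the 12 were lower than with GFP, with a median log2 fold change of -0.17 and 0 called. None of the 12 markers was at 0 in all livers. Their part in the complement values of the knockdown was not tested.

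Acute phase genes encode plasma proteins that change in inflammation, as several complement genes do. Of 22 such genes, 16 were higher with shPKLR and 0 were called by edgeR. At an unadjusted p under 0.05, 6 passed, beside 15.0% of all genes. In the overexpression 13 were higher and 2 rose: Orm1, by 0.68 (edgeR adjusted p = 0.0259), and Orm3, by 2.17 (edgeR adjusted p = 0.00656) at levels of at most 4.21 CPM in that experiment. Orm1 was lost in 6 of 18 alternatives (adjusted p up to 0.141) and Orm3 in 1 (0.0504, 1 fit of all 20 libraries). Overexpression and knockdown differed for Saa3 (-2.18, adjusted p = 0.00218), Orm3 (3.03, adjusted p = 0.0283) and Crp (0.69, adjusted p = 0.035) by edgeR. Crp was lost in 10 of 27 alternatives (adjusted p up to 0.0683), Orm3 in 1 (0.0519, without shLUC replicate 3) and Saa3 in none. Over all genes, edgeR called 2.03% in the overexpression and 5.50% for the difference. Of 20 liver transcription factors none was called in either experiment by edgeR. At an unadjusted p under 0.05, 2 passed in the knockdown and 3 in the overexpression, beside 15.0% and 18.8% of all genes.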

How the data were processed

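Each experiment has 1 deposited table of raw read counts, with 27052 genes for the knockdown and 26286 for the overexpression. The submitters' processing notes name HISAT2, DESeq2 and the builds GRCm38 and mm10, and the labels' protocols a stranded total RNA kit. How reads were counted, with which annotation and strand setting, is not given in the sources used here. Nothing in the labels says that each liver came from a different mouse, so p-values measure the spread between these samples. No 2 libraries of a group agreed within sampling noise, and 0 value columns were unmatched.

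Symbols, positions and lengths came from GENCODE M21. Counts were tested with edgeR 4.0.16 (quasi-likelihood, TMM, filterByExpr) in R 4.3.3, in the 2 groups of each experiment, and in all 20 livers for overexpression less knockdown. A call is a Benjamini-Hochberg adjusted p under 0.05 over all genes tested. The SE of a fold change is its size over the square root of the F statistic, and intervals cover 95%. CPM used TMM over the 20 libraries. Class means used a prior count of 2. DESeq2 1.42.0, limma-voom 3.58.1 and the other alternatives are given in the closing section.

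The 34 genes, the further lists and the tests were chosen with earlier results of these data known. Values of every liver were printed for called members and, in each class, for the 3 with the smallest p in each experiment; of further lists, called genes were named, except 1 result that is not reported here. Other genes named were chosen after their values were seen. The fits were tested on simulated counts, with the changed genes drawn at random from all genes tested. For the knockdown (15438 genes) they called 50% of 48 genes at a true change of 2-fold and 2.08% of 48 at 1.3-fold. In the overexpression (15658 genes) these shares were 78.7% of 47 and 4% of 50, and for the difference (16249 genes) 46% of 50 and 0% of 50.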

Additional observations from a re-analysis of the deposited data

Results flagged for a closer look

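In 7 of 132 checks, each of 1 gene in 1 group of 5 livers, the highest or lowest liver stood far from the other 4; chance flags about 1 in 20 such groups. F12 was lowest in GFP replicate 1 at 335.7 CPM, where the next liver had 443 CPM. Fgg was lowest in GFP replicate 2 at 1646 CPM, next to 2291 CPM. Kng1 was lowest in shLUC replicate 5 at 1577 CPM, next to 1761 CPM. Mbl2 was highest in GFP replicate 1 at 478 CPM, next to 362 CPM, and C4b was highest in PKLR replicate 4 at 1682 CPM, next to 1547 CPM. F13b was highest in PKLR replicate 3 at 144 CPM, next to 122 CPM. C2 was highest in shPKLR replicate 4, the deepest library, at 31.5 CPM, next to 18.8 CPM.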

How the results depend on the processing

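At these depths and spreads, changes of 1.3-fold to 1.5-fold were often missed on simulated counts, in genes drawn from all genes tested. Recovery in the members alone was not simulated. Their median standard error was 0.173 in the knockdown and 0.119 in the overexpression, beside 0.190 and 0.138 for all genes. The knockdown called 1 gene, and 7 with RLE size factors, 17 without a filter, 260 by DESeq2, 8 by limma-voom, 114 in 1 fit of all 20 libraries, 7 without mitochondrial and ribosomal RNA genes, and 1 to 12 with 1 liver left out; no member was called in any of these. The overexpression called 322 genes, 1107 by DESeq2 and 128 to 469 with 1 liver left out. Its called members were 5 by DESeq2 (Pros1, Mbl2, C4b, C1s1 and Masp1), 0 in 1 fit of all 20 libraries, and 0 (without GFP replicate 4 or PKLR replicate 3) to 2 (without GFP replicate 5) with 1 liver left out. The log2 fold change of Pros1 stayed between -0.40 and -0.33 in all 18 alternatives, and its adjusted p between 6.33e-05 and 0.196. The difference called 902 genes, 1626 by DESeq2 and 485 to 1384 with 1 liver left out, and 1 member by DESeq2. The knockdown shift of complement less coagulation was 0.099 with the median over genes, and the overexpression shift -0.201 with summed CPM and 0.0261 with the median. With 1 liver left out these were 0.203 to 0.284 and -0.089 to -0.012. The cause of these moves was not tested. No result changed sign past the threshold.

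No pairing of the samples by replicate number was seen, though correlations cannot show that there was none. Same-numbered livers had correlations of -0.28 to 0.45 in the knockdown and -0.05 to 0.27 in the overexpression, and 1 of 10 matched its own number best. With the replicate number as a block, edgeR called 3 genes in the knockdown and 544 in the overexpression. For the difference it called 2 members, Masp1 (0.90, adjusted p = 0.0314) and F13b (0.66, adjusted p = 0.0323). These fits include shPKLR replicate 4.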

Other observations

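Genes outside both cascades also followed the 4-gene mean of C6, C8a, C8b and C9 within groups. The 4 genes themselves, which enter that mean, had Pearson r of 0.93 to 0.98 with it. Among the 9619 genes at or above an average of 5 CPM in the 20 livers, the highest Pearson r was that of Cyp7b1, an oxysterol hydroxylase of bile acid synthesis (0.95, Spearman rho 0.94). Next came Selenbp2 (0.94, rho 0.94), Aadat (0.92), Serpina1e (0.91), Serpina3k (0.88) and Prkcsh (0.86). The lowest were Cyp2c38 and Nqo1 (-0.90 each), Cyp2b9 (-0.85), Mgst3 (-0.85), Tead1 (-0.84) and Gas6 (-0.84). Cyp7b1 read 75.3, 278, 61.6, 154 and 349 CPM in the PKLR livers, low in livers 1 and 3 like the complement genes, and 288, 154, 96.5, 67.3 and 75.7 CPM in the shLUC livers. Selenbp2 read 88.5, 711, 90.4, 336 and 784 CPM in the PKLR livers. Neither gene passed the edgeR test in an experiment (adjusted p of 0.385 and 0.276 for Cyp7b1, 0.546 and 0.696 for Selenbp2). These genes were picked by their likeness, so the values are a description without a test, and the Serpina genes, Selenbp2 and the Cyp2 genes have close paralogs.

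Gm45753, which shares 43.2% of the exon bases of Klkb1 on the same strand, read 8.69 ± 2.26 CPM (SD, n = 5) in shLUC livers and reached 38.8 CPM in shPKLR replicate 4.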
